A study of Mus musculus with 14 samples.

Results

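Hba-a1 and Hba-a2 encode the adult alpha globin chains of the mouse, Hbb-bs and Hbb-bt encode the adult beta globin chains, and Alas2 encodes the erythroid enzyme that starts haem synthesis. These genes were chosen by name and are 5 of the 48440 genes in the deposited count table. All 5 passed the filter on low counts, which left 24680 genes for testing. The series compared bulk RNA of mice lacking CARIP with that of wild-type mice in 3 brain regions, in 14 libraries. Knockout libraries, of genotype CARIP-/-, came from cerebellum (3 libraries), cerebral cortex (2, titled Cerebrum) and hippocampus (2). Wild-type libraries came from the same regions in the same numbers (3, 2 and 2). Every library is from the C57BL/6 strain, and the labels name no treatment, transgene, Cre driver or age. They do not say whether the libraries of a group came from separate mice, so p-values measure the spread between these libraries, which may be technical. Libraries are called by the number in their title. Those of different regions with the same genotype and number may come from 1 mouse. No symbol in the annotation used here reads CARIP, so the targeted gene itself was not analysed here.

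Haemoglobin is built from alpha and beta globin chains, each holding a haem group. Red cell precursors make both chains and the haem, and young red cells (reticulocytes) still carry the messenger RNAs into the circulation, so blood left in the vessels brings globin transcripts into a tissue sample. Some neurons also transcribe globin genes at low levels. ALAS2 joins glycine and succinyl-CoA in the mitochondria of red cell precursors, the step that limits their haem supply, while other cells use ALAS1 for the same reaction. In bulk RNA, fewer cells of a type and less RNA per cell cannot be told apart.

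The alpha globin genes lie on chromosome 11 of GRCm38 (GENCODE M21), on the plus strand. Hba-a1 (ENSMUSG00000069919.7) spans chr11:32283511-32284465 and Hba-a2 (ENSMUSG00000069917.7) spans chr11:32296489-32297298. The beta globin genes lie on the minus strand of chromosome 7, where Hbb-bs (ENSMUSG00000052305.6) spans chr7:103826534-103828096 and Hbb-bt (ENSMUSG00000073940.3) spans chr7:103812524-103813996. Alas2 (ENSMUSG00000025270.13) spans chrX:150547375-150570638 on the plus strand, within the span of Apex2 on the other strand. All 5 are annotated as protein coding.

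The 250 bases before each RefSeq start site (GRCm38.p6) are shown because the 4 globins varied together over the libraries and Alas2 less so. All 5 genes matched the RefSeq table by symbol. Each GENCODE span given above begins upstream of the RefSeq start site, so each window reaches into that span. Capitals mark 4 motifs, each searched on both strands. They are GATAA, letters that GATA factors are known to bind, then CACCC, a motif of the erythroid factor KLF1, then CCAAT, named for the factors that bind it, and TATAA, where the TATA-binding protein sits. A match on the other strand is printed here as its complement read backwards. The windows are chr11:32283422-32283671 (plus), chr11:32296242-32296491 (plus), chr7:103827929-103828178 (minus), chr7:103813924-103814173 (minus) and chrX:150547167-150547416 (plus), in the order printed.
Hba-a1: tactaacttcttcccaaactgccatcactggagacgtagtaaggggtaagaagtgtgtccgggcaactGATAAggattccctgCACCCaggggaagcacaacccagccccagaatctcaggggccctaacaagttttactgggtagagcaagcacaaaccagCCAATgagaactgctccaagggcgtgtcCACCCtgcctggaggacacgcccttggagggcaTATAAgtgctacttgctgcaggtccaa
Hba-a2: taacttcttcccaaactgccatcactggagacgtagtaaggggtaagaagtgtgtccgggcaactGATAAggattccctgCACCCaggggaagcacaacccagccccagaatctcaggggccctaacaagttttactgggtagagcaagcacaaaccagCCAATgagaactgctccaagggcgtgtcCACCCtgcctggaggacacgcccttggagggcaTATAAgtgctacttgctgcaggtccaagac
Hbb-bs: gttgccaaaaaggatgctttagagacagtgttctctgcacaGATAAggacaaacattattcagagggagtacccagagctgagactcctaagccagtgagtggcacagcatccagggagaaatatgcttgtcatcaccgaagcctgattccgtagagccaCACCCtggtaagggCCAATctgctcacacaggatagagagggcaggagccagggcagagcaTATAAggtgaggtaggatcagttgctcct
Hbb-bt: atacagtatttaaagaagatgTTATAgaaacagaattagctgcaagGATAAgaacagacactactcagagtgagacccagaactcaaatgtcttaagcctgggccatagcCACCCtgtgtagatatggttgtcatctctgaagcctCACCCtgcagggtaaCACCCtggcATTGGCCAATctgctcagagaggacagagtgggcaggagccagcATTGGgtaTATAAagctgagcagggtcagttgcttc
Alas2: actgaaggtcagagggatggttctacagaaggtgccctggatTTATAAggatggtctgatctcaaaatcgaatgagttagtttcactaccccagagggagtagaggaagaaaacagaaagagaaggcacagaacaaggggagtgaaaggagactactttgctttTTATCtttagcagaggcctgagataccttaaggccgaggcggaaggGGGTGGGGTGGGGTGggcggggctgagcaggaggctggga

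The Hba-a1 and Hba-a2 windows were the same in all 247 bases that they share. Each of the 4 globin windows held all of the motifs, with GATAA upstream of CCAAT on the gene's own strand and, nearest to the start, a TATAA that begins 27, 30, 29 and 28 bases before the start of Hba-a1, Hba-a2, Hbb-bs and Hbb-bt. The Hbb-bt window held a further TATAA and 2 further CCAAT matches on the other strand. The Alas2 window held GATAA on the other strand, 86 bases before the start, and 3 copies of CACCC on the other strand between 40 and 26 bases before it. Its TATAA matches began 208 and 207 bases before the start, and CCAAT was not among its letters. The only matches that overlap are those TATAA matches, 1 on each strand, which share 4 bases. Of 32851 RefSeq windows of the same length, 22.6% held GATAA, 52.0% held CACCC, 33.8% held CCAAT and 22.8% held TATAA.

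Library totals were 20055166 to 38770999 counted reads. Markers fitted the region labels: 6 cerebellar genes summed to 2169 to 3652 CPM (read counts scaled to a common library total) in cerebellar libraries and to at most 92.1 CPM in the others. The 6 hippocampal genes summed to 628 to 894 CPM in hippocampal libraries and to at most 159 CPM elsewhere. The 6 cortical genes summed to 707 to 1131 CPM in cortical libraries and to at most 496 CPM elsewhere. Neurod6, on both the cortical and the hippocampal list, was higher in hippocampus than in cortex (log2 fold change 2.30). Some libraries stood apart within their groups: knockout cortex 1 in red cell precursor and neutrophil genes, and knockout cortex 2, wild-type cerebellum 1 and wild-type hippocampus 2 in the choroid plexus gene Ttr. Knockout cortex 2 was also the highest of the 14 libraries for 7 of 8 mural, 6 of 9 endothelial and 6 of 8 microglial genes.

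Near-identical copies limit what can be said of each globin gene. Of all stretches of 100 bases in the annotated transcript, 56.5% of those of Hba-a1 also occur in Hba-a2, and 74.5% of those of Hba-a2 occur in Hba-a1. For Hbb-bs and Hbb-bt the shares are 62.6% and 54.8%. How reads that match both copies were counted is not given in the sources used here, so the split between copies is uncertain, and the sums of each pair are less so. Alas2 shares 311 of its 2403 exonic bases (12.9%, chrX:150570328-150570638, in its last exon) with an exon of Apex2, a DNA repair nuclease gene. Whether counting used strand is not given either, so some reads counted for Alas2 may belong to Apex2.

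Per kilobase of exon, Hbb-bs had the highest mean level over the 14 libraries, 165 CPM per kb, ahead of Hba-a1 at 53.6 CPM per kb. Hbb-bt followed at 21.5 CPM per kb, Alas2 at 8.64 CPM per kb and Hba-a2 at 6.97 CPM per kb. Without correction for length, the levels were 127 ± 45.2 CPM for Hbb-bs, 43.5 ± 16.9 for Hba-a1, 15.1 ± 5.61 for Hbb-bt, 20.8 ± 5.03 for Alas2 and 4.65 ± 2.77 for Hba-a2 (SD, n = 14). Hbb-bs thus stood above 93.0% of the tested genes in mean CPM, and Hba-a2 above 45.7%. The globins varied more between libraries than Alas2 did. The highest library exceeded the lowest by 3.67 times for Hbb-bs, 4.41 times for Hba-a1, 4.95 times for Hbb-bt and 6.65 times for Hba-a2, against 2.15 times for Alas2. Together the 4 globins took 0.00721% to 0.0286% of the reads of a library.

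**Figure D1:**
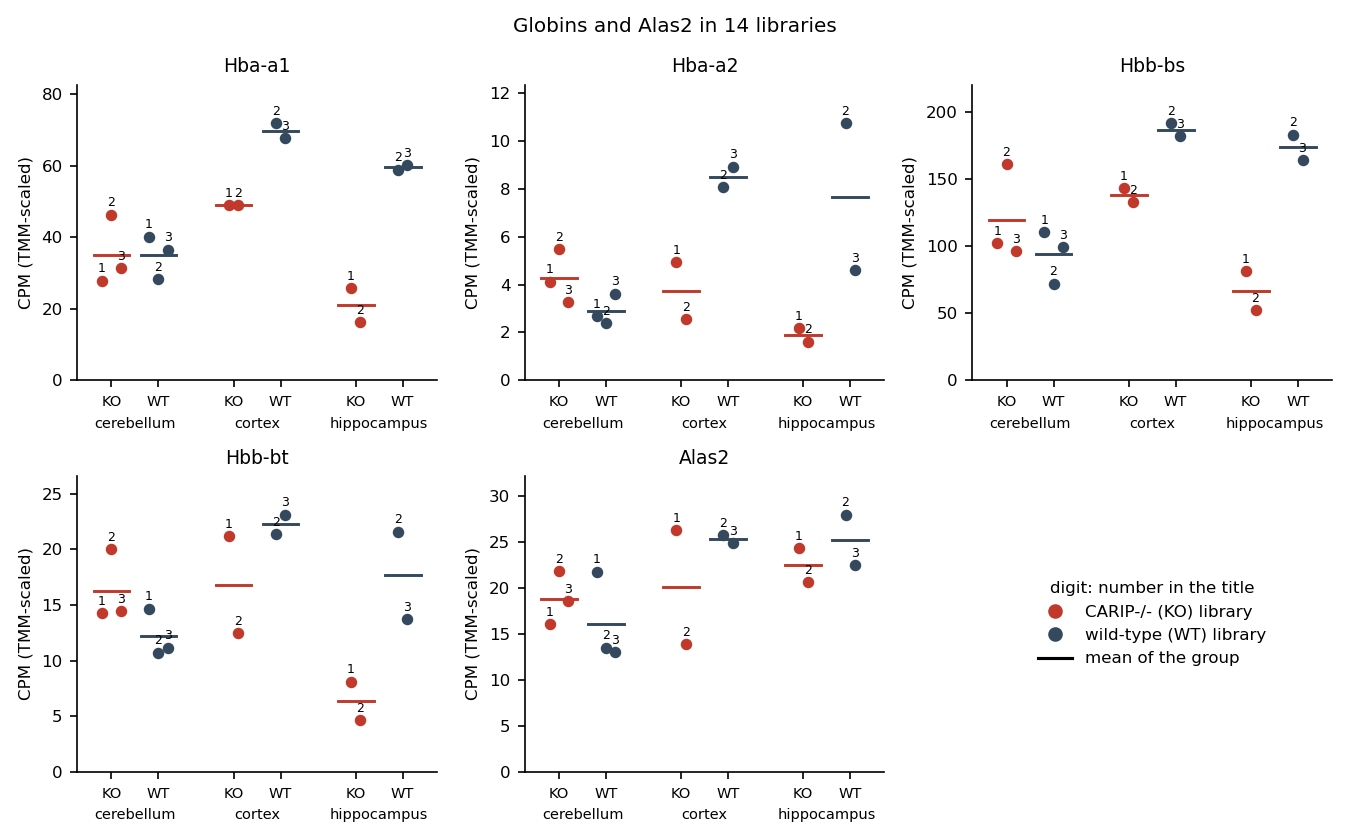
CPM on TMM-scaled totals (vertical axes, from 0) of Hba-a1, Hba-a2, Hbb-bs, Hbb-bt and Alas2 in each library, for knockout (red) and wild-type (dark grey) groups of each region; points are libraries with their number and bars are group means. In hippocampus the knockout points of each globin lie under the wild-type points, as for Hba-a1 at 16.3 and 25.8 CPM against 58.9 and 60.2 CPM, while those of Alas2 overlap.

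Hippocampus showed the widest gap between the genotypes. All 4 globins were lower in both knockout libraries than in both wild-type libraries, and Alas2 was not separated. Summed over the 4 genes, the level was 117.5 CPM in knockout library 1 and 74.8 CPM in knockout library 2, against 274.5 CPM in wild-type library 2 and 243 CPM in wild-type library 3. The mean was 96.2 ± 30.2 CPM in knockout and 259 ± 22.4 CPM in wild-type hippocampus (SD, n = 2 each), a ratio of 0.37. The sum is given without a test.

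Among the alpha chains, Hba-a1 had 25.8 and 16.3 CPM in knockout hippocampus (libraries 1 and 2), against 58.9 and 60.2 CPM in wild-type hippocampus (libraries 2 and 3). Both knockout values lie far below both wild-type values, which are close together. The log2 fold change was -1.50 ± 0.25 (SE), and an adjusted p of 1 in edgeR's quasi-likelihood test, although Hba-a1 ranked 1st of the 24680 genes by unadjusted p. Hba-a2 had 2.19 and 1.61 CPM in knockout libraries 1 and 2, from 49 and 37 reads, against 10.7 and 4.60 CPM in wild-type libraries 2 and 3, from 256 and 117 reads. The groups did not overlap, and the wild-type libraries differed from each other by more than the knockout libraries did. Its log2 fold change was -2.01 ± 0.44 (SE; edgeR, adjusted p = 1).

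Among the beta chains, Hbb-bs had 81.4 and 52.3 CPM in knockout libraries 1 and 2, against 183 and 164 CPM in wild-type libraries 2 and 3. Every knockout library was lower, and the log2 fold change was -1.38 ± 0.27 (SE; edgeR, adjusted p = 1), and it ranked next after Hba-a1 by unadjusted p. Hbb-bt had 8.12 and 4.67 CPM in knockout libraries 1 and 2, against 21.6 and 13.7 CPM in wild-type libraries 2 and 3, again without overlap. Its log2 fold change was -1.47 ± 0.33 (SE; edgeR, adjusted p = 1).

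The haem synthesis gene Alas2 had 24.3 and 20.6 CPM in knockout hippocampus, against 28.0 and 22.5 CPM in wild-type hippocampus. The groups overlapped, and its log2 fold change was -0.17 ± 0.30 (SE; edgeR, adjusted p = 1). Apex2, with which it shares exonic bases, had 49.0 and 39.7 CPM in knockout hippocampus and 37.6 and 38.9 CPM in wild-type hippocampus. Set against the globins, Alas2 gave 20.7 and 27.5 reads per 100 globin reads in knockout libraries 1 and 2, against 10.2 and 9.20 in wild-type libraries 2 and 3. In the other 10 libraries this ratio was 7.00 to 12.9, so both knockout hippocampal libraries stood above every other library.

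edgeR called 0 of 24680 genes in hippocampus (0% in background, 472 genes with an unadjusted p under 0.05), and none of the 5. DESeq2 called 2 genes (0.0081% of those tested), and both were globins: Hba-a1 (adjusted p = 0.0016) and Hbb-bs (adjusted p = 0.024). DESeq2 gave Hba-a2 an adjusted p of 0.069 and Hbb-bt one of 0.087. Of the genes without overlap between genotypes, 18.6% of all tested genes were lower in knockout hippocampus, and 4 of the 5 genes were. Over the 18 alternatives run for hippocampus, the log2 fold change of Hba-a1 stayed between -1.87 and -1.20 and that of Hbb-bs between -1.74 and -1.09, with adjusted p of 0.0016 to 1 and 0.024 to 1. Whether a globin passed the threshold in hippocampus thus depended on the tool. Fitted to the hippocampal libraries alone, edgeR called 7 genes (0.0284%) and none of the 5, with an adjusted p of 0.18 for Hba-a1.

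Choroid plexus markers were lower in knockout hippocampus, as the globins were. In knockout cortex, where the globins were lower, these markers were higher, mostly through library 2. All 7 listed markers were lower in knockout hippocampus, with a median log2 fold change of -2.88 against 0 over all genes, and none passed the test. Their sum was 79.6 to 95.2 CPM in knockout and 129.5 to 1143 CPM in wild-type hippocampus, the highest in wild-type library 2. Without that library 6 of the 7 were lower, with a median of -0.75, and the ratio of the globin sums was 0.396, against 0.372 with it. In cortex all 7 had positive log2 fold changes (median 2.75), and none passed. Their cortical sum was 33.0 CPM in knockout library 1 and 590 CPM in knockout library 2, against 13.6 to 29.1 CPM in wild type. Ttr had 21.9 CPM in knockout library 1, against 7.13 and 21.3 CPM in wild-type libraries 2 and 3. The correlation of each marker with the globin sum, as ranked below, was -0.02 to 0.27. Endothelial markers summed to 338 to 354 CPM in knockout and 287 to 333 CPM in wild-type hippocampus, and mural cell markers to 162 to 171.5 CPM and 178.5 to 190.5 CPM. The part of these cells in the globin difference was not tested.

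**Figure D2:**
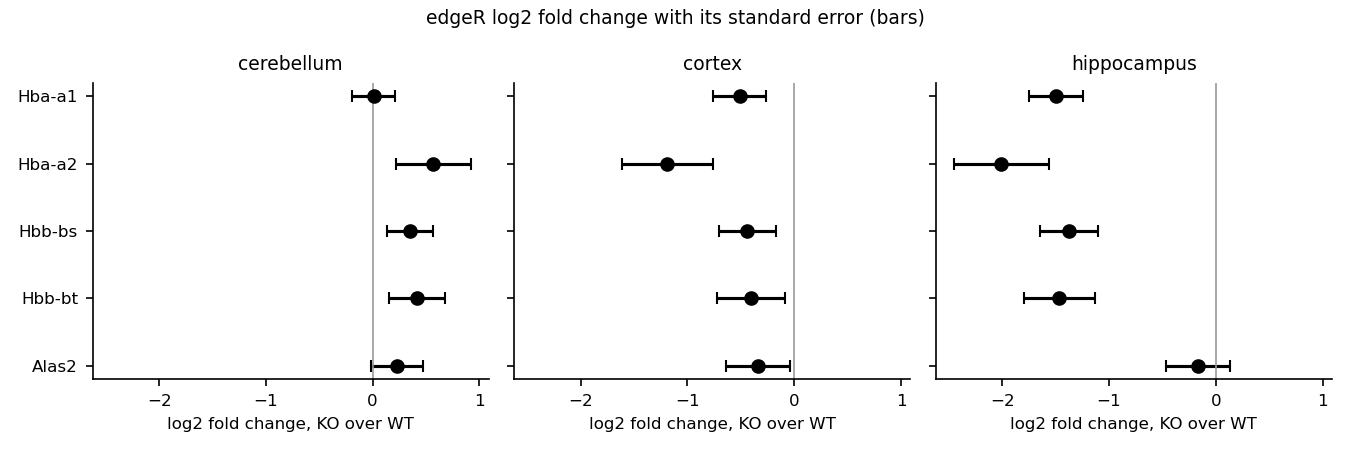
edgeR log2 fold change of knockout over wild type (horizontal axis) with its standard error (bars) for the 5 genes in each region. In hippocampus the globins lie between -2.01 and -1.38 and Alas2 at -0.17, and in cerebellum all 5 lie between 0.01 and 0.57; no adjusted p was under 0.05.

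In cerebral cortex the 4 globins were again lower in both knockout libraries, by less than in hippocampus. Their sum was 218.5 CPM in knockout library 1 and 197 CPM in knockout library 2, against 293 CPM in wild-type library 2 and 282 CPM in wild-type library 3. The mean was 208 ± 15.4 CPM in knockout and 288 ± 7.92 CPM in wild-type cortex (SD, n = 2 each), a ratio of 0.72.

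Hba-a1 had 49.0 and 48.9 CPM in knockout cortex (libraries 1 and 2), against 71.9 and 67.7 CPM in wild-type cortex (libraries 2 and 3). The libraries of a genotype lay close together and the genotypes apart, with a log2 fold change of -0.51 ± 0.25 (SE; edgeR, adjusted p = 0.68). Hba-a2 had 4.92 and 2.55 CPM in knockout libraries 1 and 2, against 8.05 and 8.91 CPM in wild-type libraries 2 and 3. Its log2 fold change was -1.19 ± 0.42 (SE; edgeR, adjusted p = 0.67).

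Hbb-bs had 143.5 and 133 CPM in knockout cortex, against 192 and 182 CPM in wild-type cortex, a log2 fold change of -0.44 ± 0.27 (SE; edgeR, adjusted p = 0.70). Hbb-bt had 21.2 and 12.5 CPM in knockout libraries 1 and 2, against 21.4 and 23.1 CPM in wild-type libraries 2 and 3. Knockout library 1 lay just under wild-type library 2, and knockout library 2 well below both wild-type libraries (log2 fold change -0.41 ± 0.32, SE; edgeR, adjusted p = 0.73). Alas2 had 26.3 and 13.9 CPM in the same knockout libraries, against 25.8 and 24.9 CPM in wild-type cortex, so the groups overlapped (log2 fold change -0.34 ± 0.30, SE; edgeR, adjusted p = 0.75). Apex2 was also lowest in knockout library 2, while the order of the other libraries differed. It had 41.2 and 19.5 CPM in knockout libraries 1 and 2, and 36.5 and 41.4 CPM in wild-type libraries 2 and 3.

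No gene passed the edgeR test in cortex (0% of 24680, 1825 with an unadjusted p under 0.05), and DESeq2 called 47 genes (0.19%), none of the 5. The 4 globins were lower without overlap, against 13.3% of all tested genes. Without knockout library 1 the log2 fold change of Hba-a2 was -1.73 (edgeR, adjusted p = 0.042). That fit left knockout cortex with 1 library, assumed to vary like the other groups, and called 3005 genes (11.7%). The remaining knockout library 2 is the one with 511 CPM of Ttr, against 7.13 and 21.3 CPM in wild-type cortex and 21.9 CPM in knockout library 1. Without knockout library 2 the ratio of the globin sums was 0.76. Vessel markers had higher mean sums in knockout cortex, but the genotypes overlapped and none of these genes passed the edgeR test. Endothelial markers summed to 473 to 540 CPM in knockout and 341.5 to 475 CPM in wild-type cortex. Mural markers summed to 201 to 260 CPM and 186 to 228 CPM. Knockout library 2 was the highest of all libraries for 6 of 9 endothelial and 7 of 8 mural genes. Their part in the globin difference was not tested.

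In cerebellum the genotypes overlapped for all 5 genes, and knockout means were similar or higher. The globin sum was 148.5, 233 and 146 CPM in knockout libraries 1, 2 and 3, against 168, 114 and 151 CPM in wild-type libraries 1, 2 and 3. Knockout library 2 was the highest of the 6, and without it the ratio of the means was 1.02 in place of 1.22. Without wild-type library 1, which stood apart in Ttr, the ratio was 1.33. The mean was 176 ± 49.6 CPM in knockout and 144 ± 27.9 CPM in wild-type cerebellum (SD, n = 3 each).

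Hba-a1 had 27.9, 46.3 and 31.4 CPM in knockout cerebellum (libraries 1, 2 and 3), against 40.2, 28.3 and 36.6 CPM in wild-type cerebellum, with means that were nearly equal (log2 fold change 0.01 ± 0.20, SE; edgeR, adjusted p = 1). Hba-a2 had 4.11, 5.49 and 3.26 CPM in knockout libraries, against 2.69, 2.39 and 3.61 CPM in wild-type libraries. Only knockout library 3 lay within the wild-type range, and the log2 fold change was 0.57 ± 0.35 (SE; edgeR, adjusted p = 1). Hbb-bs had 102, 161 and 96.5 CPM in knockout libraries, against 111, 72.2 and 99.4 CPM in wild-type libraries (log2 fold change 0.35 ± 0.22, SE; edgeR, adjusted p = 1).

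Hbb-bt had 14.2, 20.01 and 14.5 CPM in knockout cerebellum, against 14.7, 10.7 and 11.2 CPM in wild-type cerebellum. Alas2 had 16.1, 21.8 and 18.5 CPM in knockout cerebellum, against 21.8, 13.5 and 13.0 CPM in wild-type cerebellum. Both genes overlapped between the genotypes, with log2 fold changes of 0.42 ± 0.26 and 0.23 ± 0.24 (SE; edgeR, adjusted p = 1 for both). No gene passed the edgeR test (0% of 24680, 785 with an unadjusted p under 0.05), DESeq2 called 2 genes (0.0081%), and the fit that pairs the libraries by number called 105 (0.427%). None of these calls was one of the 5 genes. With no overlap, 4.78% of all tested genes were higher and 4.52% lower in knockout cerebellum.

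Averaged over the regions, the mean of the 3 knockout effects was negative for all 5 genes. It was -0.69 ± 0.15 for Hba-a1, -0.88 ± 0.27 for Hba-a2, -0.52 ± 0.16 for Hbb-bs, -0.52 ± 0.19 for Hbb-bt and -0.12 ± 0.17 for Alas2 (log2, SE, limma voom). The adjusted p was 0.46 for Hba-a1 and 0.90 to 1 for the others, and limma called 0 of 24680 genes (0%; 1086 with an unadjusted p under 0.05). DESeq2 called 81 genes (0.328%) for this average, Hba-a1 among them (adjusted p = 0.0049).

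The test of the difference between regions gave its widest estimates for cerebellum minus hippocampus. The knockout effect was higher in cerebellum by 1.51 ± 0.32 for Hba-a1, 2.58 ± 0.56 for Hba-a2, 1.73 ± 0.35 for Hbb-bs and 1.88 ± 0.42 for Hbb-bt, and by 0.39 ± 0.39 for Alas2 (log2, SE). In edgeR each had an adjusted p of 1 (0% of 24680 genes called, 368 with an unadjusted p under 0.05), and in DESeq2 the smallest was 0.056, for Hbb-bs. Cerebellum minus cortex gave 0.52 to 1.76 over the 5 genes (edgeR, adjusted p = 0.79), and hippocampus minus cortex gave -1.06 to -0.82 for the globins and 0.17 for Alas2 (edgeR, adjusted p of 0.93 to 0.96). Without knockout cortex 1, which leaves that group with 1 library, Hba-a2 gave 2.30 for cerebellum minus cortex (edgeR, adjusted p = 0.042), where 1551 genes (6.01%) passed. With all libraries no difference between regions passed for any of the 5 genes.

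**Figure D3:**
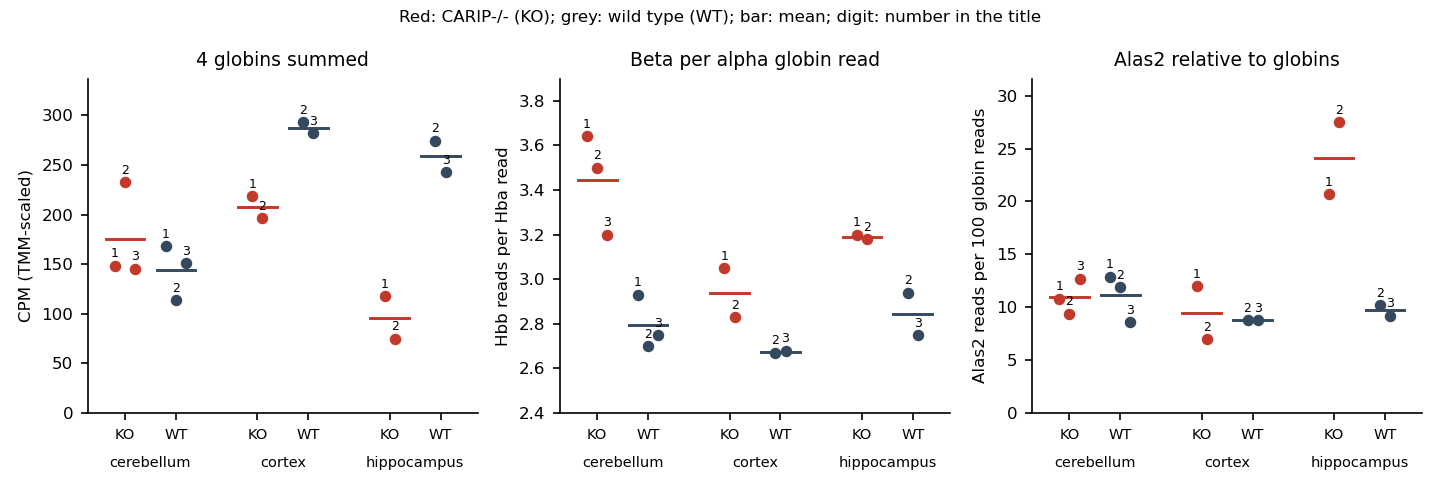
Left, the 4 globins summed in CPM (axis from 0); middle, Hbb reads per Hba read (axis from 2.4); right, Alas2 reads per 100 globin reads (axis from 0). Points are libraries with their number, bars are group means, red is knockout and dark grey wild type. Knockout points lie above wild-type points in every region for the middle measure, from 2.83 to 3.64 against 2.67 to 2.94 over all regions, and the knockout hippocampal libraries lie above all others on the right.

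Across regions the order of the globin sums differed by genotype. In knockout libraries cortex (mean 208 CPM) and cerebellum (176 CPM) were above hippocampus (96.2 CPM). In wild-type libraries cortex (288 CPM) and hippocampus (259 CPM) were above cerebellum (144 CPM). The ranges of knockout cortex (197 to 218.5 CPM) and knockout cerebellum (146 to 233 CPM) overlapped, and in wild type the range of cortex (282 to 293 CPM) lay just above that of hippocampus (243 to 274.5 CPM). Within a number, the hippocampal sum was 0.54 and 0.38 times the cortical sum in knockouts 1 and 2, against 0.94 and 0.86 times in wild types 2 and 3. The cerebellar sum was 0.68 and 1.18 times the cortical sum in the same knockouts, against 0.39 and 0.53 times in the same wild types.

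Averaged over the genotypes, Hba-a1 and Hbb-bs fell in cerebellum relative to cortex, 2 of the 5 genes where 48.4% of all tested genes passed, 23% higher and 25.3% lower. Hba-a1 had a mean of 35.1 CPM in cerebellum and 59.4 CPM in cortex, with no overlap between the 6 cerebellar and 4 cortical libraries, as for 18% of all tested genes that were lower. Its log2 fold change was -0.74 ± 0.16 (SE; edgeR, adjusted p = 0.0020). Hbb-bs had means of 107 and 163 CPM, with overlap, and a log2 fold change of -0.60 ± 0.17 (SE; edgeR, adjusted p = 0.012). Both calls held in all 18 alternatives. Hba-a2 (-0.67, adjusted p = 0.057), Hbb-bt (-0.46, adjusted p = 0.081) and Alas2 (-0.37, adjusted p = 0.13) missed the threshold in edgeR. They passed it in 6, 1 and 2 of the 18 alternatives. For each of these genes 1 of those alternatives was the fit without knockout cortex 2, which left that group with 1 library.

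Relative to cortex, Hba-a1 and Hbb-bt fell in hippocampus, 2 of the 5 genes where 12% of all tested genes passed and 6.48% passed lower. Hba-a1 had means of 40.3 CPM in hippocampus and 59.4 CPM in cortex (log2 fold change -0.72 ± 0.18, SE; edgeR, adjusted p = 0.017), and Hbb-bt 12.03 and 19.5 CPM (-0.86 ± 0.23, SE; edgeR, adjusted p = 0.027). The libraries of the regions overlapped for each of the 5 genes, while 8.9% of all tested genes were higher and 9.89% lower without overlap. In the fit that pairs libraries by genotype and number, Hba-a1 had an adjusted p of 0.051 and Hbb-bt one of 0.042. The call of Hba-a1 was lost without wild-type cortex 2, knockout hippocampus 2 or either wild-type hippocampal library (adjusted p up to 0.077). The call of Hbb-bt was lost without knockout cortex 1, either wild-type cortical library, knockout hippocampus 2 or wild-type hippocampus 3 (adjusted p up to 0.12). Hbb-bs (-0.58, adjusted p = 0.071), Hba-a2 (-0.56, adjusted p = 0.29) and Alas2 (0.08, adjusted p = 0.87) did not pass in edgeR, and Hbb-bs passed in 4 of the 18 alternatives.

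None of the 5 genes passed between cerebellum and hippocampus, where 47.3% of all tested genes did, 22.6% higher and 24.7% lower. The libraries overlapped for each of the 5, while 20.3% of all tested genes were higher and 22.3% lower without overlap. The log2 fold changes of Hba-a1, Hba-a2 and Hbb-bs were -0.11 to -0.01, that of Hbb-bt was 0.40 and that of Alas2 was -0.45 (edgeR, adjusted p = 0.070). Alas2 passed in 4 of the 18 alternatives and Hbb-bt in 1.

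The balance of the chains differed between the genotypes in each region, as a description without a test. Hbb-bs and Hbb-bt together gave 3.64, 3.50 and 3.20 reads per read of Hba-a1 and Hba-a2 in knockout cerebellum (libraries 1, 2 and 3), against 2.93, 2.7 and 2.75 in wild-type cerebellum. In cortex the ratio was 3.05 and 2.83 in knockout libraries 1 and 2, against 2.67 and 2.68 in wild-type libraries 2 and 3. In hippocampus it was 3.20 and 3.18 in knockout, against 2.94 and 2.75 in wild-type libraries. Knockout libraries were higher without overlap in each region, whether the globin sum was lower than in wild type (hippocampus and cortex) or overlapped it (cerebellum).

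As a share of globin reads, the beta chains held 73.9% (95% Wilson interval 72.8% to 74.9%, knockout cortex 2) to 78.5% (77.1% to 79.8%, knockout cerebellum 1) in knockout libraries. They held 72.8% (71.7% to 73.7%, wild-type cortex 2) to 74.7% (73.6% to 75.7%, wild-type hippocampus 2) in wild-type libraries. The intervals of the nearest knockout and wild-type libraries overlapped in each of the 3 regions, and they cover counting error only. This ratio rests on pairs of genes summed, so how reads were split between the copies of a pair does not enter it, while reads left out for matching both copies would. Within the pairs, Hba-a2 took 4.97% to 15.4% of alpha reads and Hbb-bt 7.71% to 13.0% of beta reads, with no set order of the genotypes: Hba-a2 averaged 10.96% in knockout and 7.68% in wild-type cerebellum, and 7.05% in knockout and 10.8% in wild-type cortex.

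Of the other globins, those of the embryonic and theta classes were near 0, and Ngb and Cygb were not. The embryonic chains Hba-x, Hbb-bh1 and Hbb-bh2 had 0 reads in all 14 libraries, and Hbb-y had at most 1 read in a library. The theta chains Hbq1a and Hbq1b had at most 8 and 10 reads. Neuroglobin (Ngb) and cytoglobin (Cygb), the globins of neurons and of fibroblast-like cells, passed the filter with mean levels of 1.52 and 38 CPM. Neither passed the edgeR test between the genotypes in a region, and both were highest in knockout cortex 2, at 7.84 and 66.4 CPM.

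The remaining haem synthesis enzymes did not follow the globins. The 8 enzymes other than ALAS2 summed to 207 to 208.5 CPM in knockout and 208 to 218 CPM in wild-type hippocampus, and none passed the edgeR test between genotypes in a region (0 of 8 in each). Their median log2 fold change was -0.03 in hippocampus, 0.14 in cortex and -0.05 in cerebellum. Alas1, the form that other tissues use for the first step, had -0.02 ± 0.12 in knockout hippocampus, and Fech, which inserts the iron, had -0.10 ± 0.15 (log2, SE; edgeR, adjusted p = 1). In the fit without knockout cortex 1 (11.7% of all genes called in cortex), 2 of the 8 passed in cortex, 1 in each direction. Between regions 2 enzymes rose and 1 fell in cerebellum relative to cortex, 3 of 8 where 48.4% of all tested genes passed: Alad by 0.60 ± 0.10, Ppox by 0.50 ± 0.16 and Cpox by -0.31 ± 0.12 (log2, SE; edgeR, adjusted p of 0.00033, 0.020 and 0.040). Alad, Urod and Ppox rose and Cpox fell in cerebellum relative to hippocampus (0.88, 0.33, 0.44 and -0.66), 4 of 8 where 47.3% of all tested genes passed.

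Of the 6 mitochondrial carriers that serve haem synthesis, none passed between genotypes in edgeR, with a median of -0.26 in hippocampus and of -0.05 there without wild-type library 2. Slc25a37 (mitoferrin-1, which brings iron into mitochondria) had 0.14 ± 0.18 in knockout hippocampus (log2, SE; edgeR, adjusted p = 1). Between regions, 2 of the 6 rose and 2 fell in cerebellum relative to cortex, where 48.4% of all tested genes passed. In hippocampus relative to cortex 1 of the 6 fell, where 12% of all tested genes passed. Slc25a37 fell in both comparisons (-0.62 and -0.75; edgeR, adjusted p of 0.00073 and 0.0021). Abcb10 rose (0.49) and Tmem14c fell (-0.42) in cerebellum relative to cortex (edgeR, adjusted p of 0.011 and 0.033).

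Of 8 erythroid transcription factors and receptors, 6 passed the filter and 0 passed between genotypes in a region. All 6 had negative log2 fold changes in knockout hippocampus, with a median of -0.26 against 0 over all genes, and 5 of the 6 did without wild-type library 2. The 2 most abundant, the transferrin receptor Tfrc and the GATA1 partner Zfpm1, had -0.28 ± 0.29 and -0.25 ± 0.15 (log2, SE; edgeR, adjusted p = 1), and both are also expressed outside the red cell lineage. The defining factors Gata1 and Gfi1b were at 0 reads in 5 and 9 of the 14 libraries and reached at most 10 and 4 reads. In cerebellum 2 of the 6 fell relative to cortex, where 48.4% of all tested genes passed. Relative to hippocampus 2 rose and 1 fell, where 47.3% of all tested genes passed. Zfpm1 fell in both comparisons (-1.32 and -1.37). Klf1 and Nfe2 rose in cerebellum relative to hippocampus (2.41 and 1.97). Their mean levels were 0.453 and 0.404 CPM, with at most 31 and 21 reads in a library.

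Genes of the red cell membrane and its enzymes differed from the globins in cortex through 1 library. Of 18 listed genes 17 were in the table and 12 passed the filter, and all 12 had positive log2 fold changes in knockout cortex (median 0.74 against 0.02 over all genes; 0 passed in edgeR). This rests on knockout cortex 1: without it 5 were positive and 7 negative, with a median of -0.25, and 1 passed where 11.7% of all tested genes did. In hippocampus 5 were positive and 7 negative (median -0.11), or 7 and 5 without wild-type library 2, and in cerebellum 7 and 5 (median 0.15). The most abundant members, Sptb and Ank1 at means of 509 and 330 CPM, are erythrocyte spectrin and ankyrin genes that neurons also express. Sptb had 0.14 ± 0.15 and Ank1 0.41 ± 0.16 in knockout cortex (log2, SE; edgeR, adjusted p of 0.79 and 0.67). Between regions Ank1 (2.35) and Sptb (0.92) rose and Ermap (-1.12) fell in cerebellum relative to cortex, and in hippocampus relative to cortex Sptb rose (0.45) while Ank1 and Trim10 fell (-0.91 and -4.30).

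In 1 library these genes were high while its globins were not. Of the 16 listed red cell genes with at least 10 reads in some library, 10 were highest in knockout cortex 1. The following genes were named after their values were seen. Slc4a1, the band 3 anion exchanger, had 12.4 CPM in knockout cortex 1 and 0.480 to 4.60 CPM in the other 13 libraries. Kel and Hemgn reached 2.00 and 1.78 CPM there and at most 0.35 and 0.31 CPM elsewhere. The globin sum of this library, 218.5 CPM, lay below both wild-type cortical libraries, and its Alas2 level of 26.3 CPM was the second highest of the 14.

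Neutrophil genes were highest in the same library. All 8 listed neutrophil genes peaked in knockout cortex 1, where Ngp had 15.1 CPM (0.433 to 2.90 CPM elsewhere) and S100a9 14.01 CPM (0.314 to 4.07 CPM elsewhere). The list summed to 5.64 to 52.7 CPM in knockout and 7.19 to 14.4 CPM in wild-type cortex. In cerebellum the sum was 4.84 to 13.3 CPM in knockout and 2.49 to 5.47 CPM in wild type, and in hippocampus 3.97 to 9.01 CPM and 3.304 to 5.32 CPM. All 8 genes had positive log2 fold changes in each region (medians 1.55, 1.39 and 0.58 in cerebellum, cortex and hippocampus), and 0 passed the edgeR test in any. In cortex the direction rests on knockout library 1: without it 1 gene was positive and 7 negative, with a median of -0.62. Ngp had 0.534 CPM in knockout cortex 2, against 2.72 and 1.52 CPM in wild-type cortex. Without wild-type hippocampus 2, 7 of the 8 were positive in hippocampus, and without wild-type cerebellum 1 all 8 were in cerebellum. The part of blood cells in the differences of the 5 genes was not tested.

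**Figure D4:**
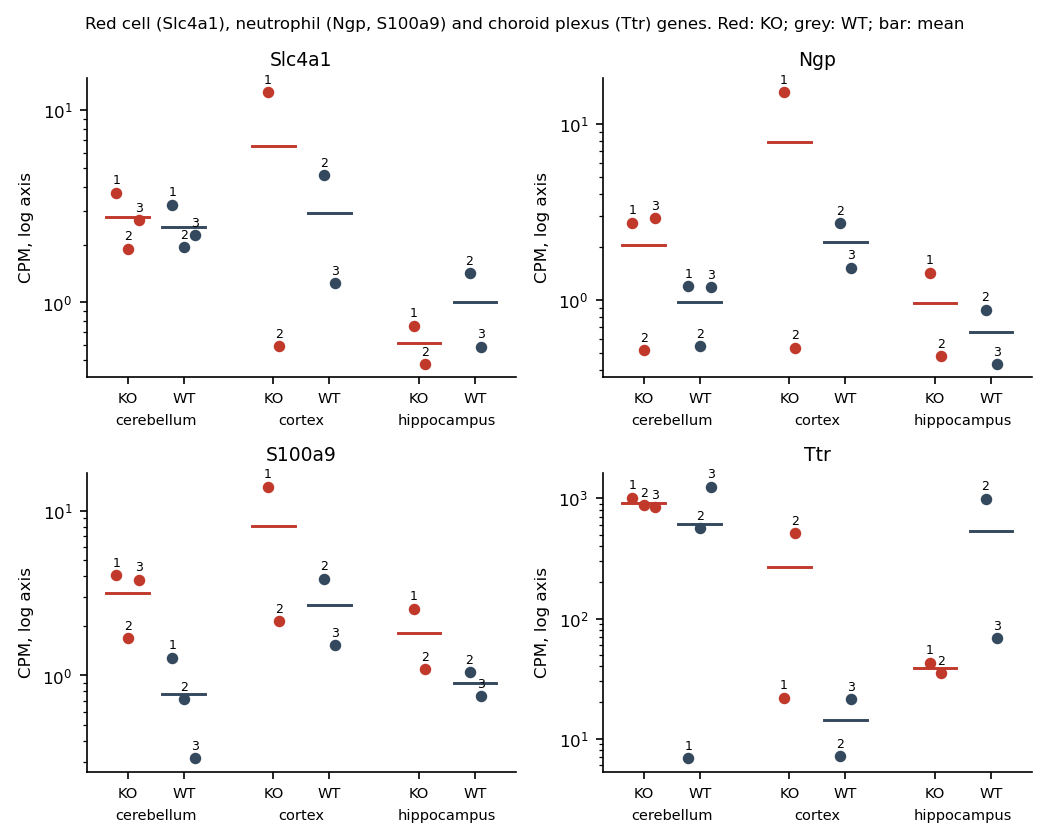
CPM on log axes of the red cell membrane gene Slc4a1, 2 neutrophil genes (Ngp, S100a9) and the choroid plexus gene Ttr in each library; red is knockout, dark grey wild type, bars are group means and digits are library numbers. Knockout cortex 1 is highest in the first 3 panels, as for Slc4a1 at 12.4 CPM, and Ttr spans 6.84 to 1255 CPM.

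Other cells of blood and vessels were compared from the same kind of lists. Platelet genes (5 of 8 passed the filter) summed to 4.99 to 7.11 CPM in knockout and 6.37 to 7.55 CPM in wild-type hippocampus, with a median log2 fold change of -0.04. Lymphocyte genes (5 of 10) summed to 11.5 to 11.9 CPM and 11.5 to 12.4 CPM in the same groups. Microglial genes had a median log2 fold change of 0 in hippocampus, 0.22 in cortex and -0.07 in cerebellum. Meningeal fibroblast genes had medians of -0.58, 0.22 and -0.64. Without wild-type hippocampus 2 their hippocampal median was 0.04, and in cortex it was 0.5 without knockout library 1 and -0.88 without knockout library 2. The cortical microglial median was 0.48 and -0.06 in the same fits. For each of these lists 0 members passed the edgeR test between genotypes in a region with all libraries. Of 11 genes that handle haem and iron outside the red cell, 0 passed between genotypes in a region. The most abundant, the receptor Lrp1 and the ferritin heavy chain Fth1, had -0.02 ± 0.12 and 0.00 ± 0.45 in knockout hippocampus (log2, SE; edgeR, adjusted p = 1).

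The genes most like the globins were ranked by the Pearson correlation of their log2 CPM with that of the globin sum over the 14 libraries, after the mean of each region was subtracted. Libraries of a region share that mean, and a group's difference between genotypes enters the value. The 4 globins, which are part of the sum, had r of 0.88 to 1, and Alas2 had 0.52. Of 18534 other genes ranked, Tent5c, which encodes a poly(A) polymerase, came first with r = 0.91, followed by Slc39a14, a zinc and iron transporter, with 0.85. The next 8 were Smt3h2-ps4, Gm16751, Slc35f5, Gm13038, Gm20069, Jade3, Mill2 and Arpc5l, with r of 0.76 to 0.82. No gene of the haem synthesis list exceeded r = 0.23, and the highest of the mitochondrial carriers was Abcb6 with 0.60. When each group's own mean was subtracted instead, the globins had r of 0.60 (Hba-a2) to 1 (Hbb-bs). Alas2 then had 0.59, close to Hba-a2.

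Tent5c had 5.66 and 3.75 CPM in knockout hippocampus (libraries 1 and 2), against 9.01 and 8.38 CPM in wild-type hippocampus (libraries 2 and 3). In cortex it had 9.25 and 8.31 CPM in knockout and 9.96 and 9.14 CPM in wild type. In cerebellum it had 7.17, 10.4 and 7.89 CPM in knockout libraries 1, 2 and 3, against 5.87, 4.98 and 6.32 CPM in wild-type libraries. Its hippocampal groups do not overlap, as for 18.6% of all tested genes that were lower in knockout. Its cerebellar groups do not overlap either, as for 4.78% that were higher in knockout, while those of the globins did. Its highest library, knockout cerebellum 2, is the cerebellar library with the highest globin sum. Tent5c was picked by its correlation with the globins in these same libraries, so their likeness by library follows from that choice. Tent5c also came first when no mean was subtracted (r = 0.92) and when each group's own mean was (r = 0.94).

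**Figure D5:**
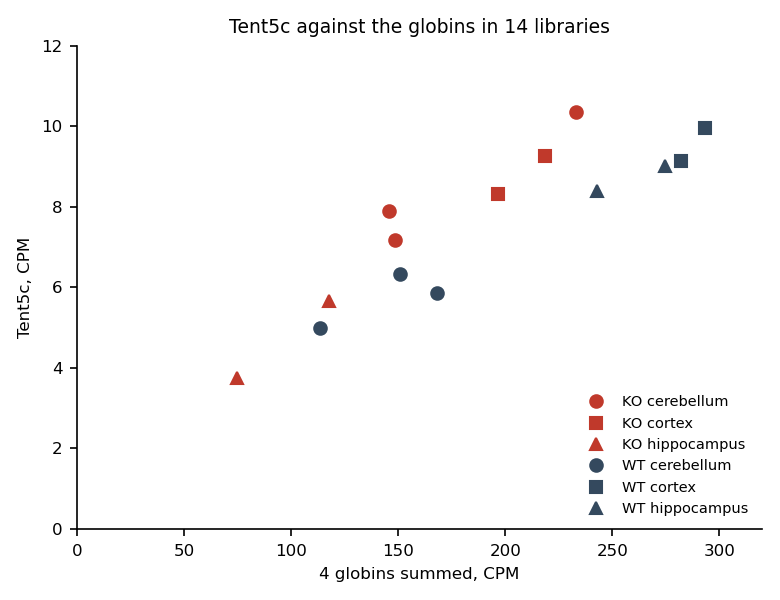
Tent5c (vertical axis, CPM) against the 4 globins summed (horizontal axis, CPM) in each of the 14 libraries; colour marks the genotype (red knockout, dark grey wild type) and shape the region. Knockout hippocampus 2 is lowest in both, at 3.75 and 74.8 CPM, and r on log2 values without centring was 0.92.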

How the data were processed

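Total RNA of 14 brain samples was sequenced in bulk, after TRIzol extraction and DNaseI treatment, per the labels' protocols. The tools named in the labels, per the submitters' processing notes, are Trim Galore 0.6.4, cutadapt 2.10, STAR 2.7.3a and featureCounts 2.0.1, with the build GRCm38.p6. The authors deposited 1 table of whole-number read counts per gene, not normalized. The sources used here do not give the strand setting or how reads with several matches were handled. Identifiers were matched to GENCODE M21 (48058 of 48440, version ignored), and promoter sequences are RefSeq's.

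The genotypes within a region, and the regions averaged over genotypes, were tested by edgeR 4.0.16 (R 4.3.3, filterByExpr, TMM, robust quasi-likelihood), with all 14 libraries and 6 groups in 1 fit. The average effect was tested by limma 3.58.1 (voom, the genotype number as a random block, correlation 0.096). Adjusted p-values are Benjamini-Hochberg over all 24680 genes, called under 0.05. CPM values use totals scaled by TMM factors. Library totals of 20055166 to 38770999 reads limit the precision; intervals are Wilson 95% intervals and cover counting error only. Alternatives were DESeq2 1.42.0, RLE scaling, no filter, replicate blocks, and each library left out; fits to the libraries of a region alone, and list counts without each library that stood apart, were added after seeing the data. The members and lists were chosen with earlier results of these data known. Named were all 5 members in every comparison, up to 4 passing members of a list or else its 2 most abundant, and the 10 genes most like the globin sum; the red cell and neutrophil genes named from knockout cortex 1 were chosen after their values were seen. The numbers in the titles were checked as pairs by whether deviations from group means correlated by over 0.1 for every pair (15886 genes). The correlations were 0.32, 0.81 and 0.43 for knockout and wild-type cerebellum. They were 0.18 to 0.25 for cortex and hippocampus and 0.17 to 0.42 for cerebellum and cortex. In groups of 2 libraries the deviations are opposite, so within a genotype both numbers gave the same value for cortex and hippocampus. Cerebellum and hippocampus gave -0.09 to 0.19, short of that bound. The replicate block was still fitted over all regions, as an alternative and in the average effect. Some list members are not reported here. The scripts were tested on simulated counts.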

Additional observations from a re-analysis of the deposited data

How the results depend on the processing

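Counts of called genes moved with the tool, the replicate block, the libraries in the fit and the library left out. DESeq2 called 2 genes in cerebellum, 47 in cortex, 2 in hippocampus and 81 for the average, where edgeR and limma called 0. In cortex 1 gene was called without a filter on low counts, for the average 1 without the replicate block, in cerebellum 105 with the replicate block, and in hippocampus 7 with the hippocampal libraries alone. Leaving out 1 library each gave 0 to 1 call in cerebellum, 0 to 3005 in cortex, 0 to 41 for the average, 0 to 1551 for cerebellum minus cortex, 0 to 760 for hippocampus minus cortex and 1541 to 4143 for hippocampus against cortex. The highest counts for cortex, the average and both differences from cortex came without knockout cortex 1, and the lowest for hippocampus against cortex without knockout hippocampus 1. The cause was not tested. With the replicate block, Hba-a1 in cerebellum was -0.01 and Hba-a2 between cerebellum and hippocampus 0.036, each a reversed sign near 0, and Alas2 between cerebellum and hippocampus passed (adjusted p = 0.040, edgeR, 40% of genes called). Leaving out 1 library also turned signs: Hba-a1 in cerebellum ranged from -0.24 to 0.15, and between cerebellum and hippocampus Hba-a1 from -0.16 to 0.19, Hba-a2 from -0.34 to 0.26 and Hbb-bs from -0.16 to 0.18. Alas2 ranged from -0.86 to 0.048 in cortex, -0.32 to 0.001 in hippocampus, -0.26 to 0.045 for the average, -0.22 to 0.70 for hippocampus minus cortex and -0.11 to 0.34 for hippocampus against cortex. The ratio of globin sums ranged over the libraries left out from 0.289 to 0.454 in hippocampus, 0.684 to 0.76 in cortex and 1.02 to 1.33 in cerebellum. Of the other values of single genes, 835 kept their direction and side of the threshold, 23 passed newly and 10 no longer passed. Of the 10 genes most like the globins, 2 were shared without centring and 2 with each group's mean subtracted. The replicate block changed no other call of the 5 genes than those given here and in the comparison of hippocampus with cortex.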

Other observations

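Alb, the serum albumin gene, which is expressed mainly in liver, was looked at after its values were seen, as it is on no list. It had 1.92 and 1.61 CPM in knockout hippocampus (libraries 1 and 2), against 0.0419 and 0.236 CPM in wild-type hippocampus (libraries 2 and 3). In cerebellum it had 0.221, 1.23 and 1.22 CPM in knockout libraries 1, 2 and 3, and 0 reads in each of the 3 wild-type libraries. In cortex it had at most 0.212 CPM in knockout and 0.115 CPM in wild-type libraries. Its highest library held 43 reads.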
